A study of Mus musculus with 24 samples.

Results

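The mitochondrial ribosomal proteins were taken as every protein-coding row of the gene table whose symbol starts with Mrpl or Mrps followed by a digit, which gave 78 of 54532 genes. By name, 49 belong to the large subunit of the ribosome and 29 to the small subunit, and they lie on 17 chromosomes. Of these, 77 passed the filter on low counts, and Mrpl53 had 0 counts in all 24 libraries. Its exons are shared over 88.0% of their length with Gm42688, a protein-coding gene on the same strand that had 719 counts over all libraries, so the 0 of Mrpl53 gives no level for its transcript.

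Mitochondria carry their own ribosomes, whose RNA is transcribed from mitochondrial DNA and whose proteins are all encoded in the nucleus, made in the cytosol and imported. They translate the few mitochondrially encoded mRNAs, which specify subunits of the respiratory chain and of ATP synthase. Osteoclasts, the multinucleated cells that resorb bone, form when macrophages fuse, and they are known for their many mitochondria.

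The RNA came from macrophages grown out of mouse bone marrow on petri dishes. For 3 or 5 days the cells then received only the macrophage growth factor M-CSF, at a dose the labels leave out, or osteoclast medium with RANKL at 50 ng/mL and M-CSF at 30 ng/mL. RANKL is the cytokine that drives macrophages to become osteoclasts. Cells of both genotypes carried the Rosa26-Runx1tg/+ allele, a Runx1 transgene at the Rosa26 locus. The control cells had no Cre, and the other cells also carried LysM-Cre, a Cre driven from the lysozyme 2 locus that is active in myeloid cells. By the labels the former are a wild type control and the latter overexpress Runx1 as a gain of function. Both genotypes, both media and both days make 8 groups of 3 libraries each. The labels number the libraries of a group from 1 to 3 without saying whether a number is an animal, a culture or a day, and they leave out age and sex. Each p-value here measures no more than the spread between the samples, which may be technical.

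Library totals ran from 18.98 to 36.5 in units of 1e6 counts, and a single count was worth 0.0286 to 0.0542 CPM, the count per 1e6 of the TMM-scaled library size. Runx1 itself passed no test between the genotypes. At day 3 without RANKL it measured 79.4 ± 12.8 CPM in control cells and 86.0 ± 11.7 in LysM-Cre cells (SD, n = 3), and at day 5 with RANKL 68.6 ± 2.56 and 80.6 ± 15.1 CPM (SD, n = 3). The genotype difference of Runx1 lay between 0.00 and 0.23 on the log2 scale in the 4 combinations of day and medium, with an edgeR adjusted p of 1 in each, so the cells with Cre, labelled LysM-Cre;Rosa26-Runx1tg/+, are referred to as cells labelled LysM-Cre Runx1 or LysM-Cre-labelled cells. The 4 libraries of that genotype numbered 3 held 2576 Y-linked counts together and 2 to 12 Xist counts each. The other libraries held 0 to 2 Y-linked counts per number and 14963 to 28379 Xist counts each, so the sources of the libraries differed in sex. Results for that genotype are also given without these 4 libraries where they move. The 9 osteoclast markers summed to group means of 49.3 to 58.8 CPM without RANKL and 42600 to 50900 CPM with it, and macrophage markers to 21350 to 31060 and 5780 to 8280 CPM. Among the latter, Lyz2, whose locus drives the Cre, ran from 11040 to 25580 CPM without RANKL and from 1170 to 5240 CPM with it. Mrc1, Adgre1, Siglec1, Cd14 and Mertk were also lower with RANKL, without overlap. Csf1r overlapped between media (1886 to 3491 and 1481 to 2413 CPM), as did Cd68 (1079 to 1467 and 1179 to 1647 CPM). Lymphoid and mast cell markers summed to group means of at most 0.43 and 0.16 CPM, and Cd3e and Tpsb2 were at 0 in all 24 libraries. The list of erythroid and megakaryocyte markers was lower with RANKL. In control cells it summed to 377 ± 52.8 CPM without and 34.4 ± 8.77 CPM with RANKL after 3 days, and to 1494 ± 37.2 and 82.8 ± 5.13 CPM after 5 (SD, n = 3). Nearly all of it was Pf4, and its other 3 genes stayed at or below 0.171 CPM in every library. Neutrophil markers had group means of 97.9 to 158 CPM without RANKL and 70.0 to 120 CPM with it.

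The sequences before the start sites of 5 members are printed because these genes carry the findings on levels described further on. Mrps6, Mrpl52 and Mrpl12 had the largest differences with RANKL at day 3 among the members with a promoter entry, Mrpl33 was lower with RANKL in all 4 comparisons, and Mrpl9 was among the largest rises at day 5 in control cells and holds the motif of nuclear respiratory factor 1. Each stretch runs 5′ to 3′ from 250 bases before the start to 50 bases after it, from RefSeq on GRCm38.p6. Capitals mark the core of the ETS factors or of nuclear respiratory factor 1, and a stretch in lower case throughout holds neither.
Mrps6 (chr16:92058086-92058385, plus strand): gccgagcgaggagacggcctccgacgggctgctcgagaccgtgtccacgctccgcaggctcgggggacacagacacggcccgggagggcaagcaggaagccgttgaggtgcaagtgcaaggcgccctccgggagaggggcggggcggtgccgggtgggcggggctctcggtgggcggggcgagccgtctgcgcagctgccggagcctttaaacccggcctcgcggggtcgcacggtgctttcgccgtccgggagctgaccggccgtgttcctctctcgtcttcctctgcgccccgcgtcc
Mrpl52 (chr14:54426659-54426958, plus strand): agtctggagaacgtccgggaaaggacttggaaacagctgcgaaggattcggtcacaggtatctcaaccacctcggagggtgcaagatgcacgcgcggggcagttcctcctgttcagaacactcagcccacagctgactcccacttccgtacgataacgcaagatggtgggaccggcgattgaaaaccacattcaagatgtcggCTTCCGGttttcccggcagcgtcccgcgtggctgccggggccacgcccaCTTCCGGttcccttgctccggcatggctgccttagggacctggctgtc
Mrpl12 (chr11:120484387-120484686, plus strand): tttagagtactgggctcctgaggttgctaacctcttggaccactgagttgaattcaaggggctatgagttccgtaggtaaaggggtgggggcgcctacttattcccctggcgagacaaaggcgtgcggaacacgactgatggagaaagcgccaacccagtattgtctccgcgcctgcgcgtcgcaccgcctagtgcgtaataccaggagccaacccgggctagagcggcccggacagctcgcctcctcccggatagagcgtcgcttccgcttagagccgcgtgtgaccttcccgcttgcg
Mrpl33 (chr5:31613701-31614000, plus strand): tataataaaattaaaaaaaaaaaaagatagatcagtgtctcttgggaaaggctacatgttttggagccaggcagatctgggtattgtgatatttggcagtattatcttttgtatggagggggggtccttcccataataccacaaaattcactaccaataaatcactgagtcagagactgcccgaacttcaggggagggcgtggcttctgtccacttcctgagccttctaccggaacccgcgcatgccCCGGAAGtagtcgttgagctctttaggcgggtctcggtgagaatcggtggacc
Mrpl9 (chr3:94443086-94443385, plus strand): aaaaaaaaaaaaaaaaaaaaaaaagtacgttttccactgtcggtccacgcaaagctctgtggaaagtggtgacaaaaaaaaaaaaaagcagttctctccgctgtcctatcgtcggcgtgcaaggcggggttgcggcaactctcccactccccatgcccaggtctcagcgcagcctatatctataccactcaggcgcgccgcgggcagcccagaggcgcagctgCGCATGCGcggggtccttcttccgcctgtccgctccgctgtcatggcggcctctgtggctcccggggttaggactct
The Mrpl52 stretch held the ETS core on the reverse strand at 2 places, that of Mrpl33 held it once on the forward strand across the start, and that of Mrpl9 held the core of nuclear respiratory factor 1.

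Promoter entries were found for 69 of the 78 members, and Mrps35 was not among them. The ETS core CCGGAAG, or CTTCCGG on the other strand, occurred in the promoters of 26 of these 69 genes (37.7%), against 19.7% of 10538 genes tested for expression and 9.93% of all 27025 genes with an entry. The cytosolic ribosomal proteins, which serve the ribosomes outside mitochondria, held it in 40.4% of 57 genes. The core of nuclear respiratory factor 1, CGCATGCG, which reads the same on both strands, occurred in 10.1% of the mitochondrial family, 4.21% of genes tested and 2.07% of all genes. The YY1 core GATGGCG (other strand CGCCATC) was held by 11.6% of the family and 7.27% of genes tested, the E-box CACGTG (the same on both strands) by 7.25% and 11.6%, and the TATA box TATAAA (other strand TTTATA) by 7.25% and 9.03%. Median GC content was 58.7% for the promoters of the family and 60.3% for those of genes tested. The letters of a motif in a promoter are a description and not a measured site. The 25 tested members with the ETS core had a median RANKL difference of 0.77 on the log2 scale at day 3 in control cells, and the 43 members with an entry and without the core had a median of 0.89. The corresponding medians were 1.09 for the 7 members with the core of nuclear respiratory factor 1 and 0.84 for the 61 without it. In LysM-Cre-labelled cells at day 3 the medians were 0.77 and 0.82 for the ETS core and 0.83 and 0.81 for the core of nuclear respiratory factor 1, so the latter gap was nearly absent there. At day 5 in control cells they were 0.43 and 0.58 for the ETS core and 0.69 and 0.51 for the other core. In LysM-Cre-labelled cells at day 5 they were 0.57 and 0.70, and 0.72 and 0.63. These gaps were not tested.

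Counts of the family came to between 38199 and 122503 per library, which is 0.184% to 0.222% of all counts in the 12 libraries without RANKL and 0.306% to 0.379% in the 12 with it. Tested members had between 72 and 3864 counts in a library. Per kilobase of exon, the mean level over the 24 libraries was highest for Mrpl34, a large-subunit protein with a bacterial counterpart, at 72.1 CPM per kb (range 41.9 to 115). Mrps21 followed at 55.3 and Mrpl28 at 43.5 CPM per kb. The lowest levels were 2.99 for Mrps30, 3.23 for Mrpl33 and 3.88 for Mrps10. The levels of the family thus spanned a wide range per unit of annotated exon length, which includes noncoding transcripts. Mrpl33 and Mrps10 have gene models that are mostly noncoding, which lengthens the exons that the level is divided by. Of the 7326 exonic bases of Mrpl33, only 478 (6.5%) belong to a protein-coding transcript, the lowest share in the family, and for Mrps10 that share is 17.6%, against a median of 77.7% over the 78 members. The share is under 50% in 16 members, among them Mrpl37 (33.6%), Mrpl52 (44.3%), Mrps34 (44.5%), Mrps35 (48.8%) and Mrps30 (49.8%). Counts of these 16 members, whether they were higher or lower with RANKL, need not reflect the coding mRNA.

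Summed over the family, levels were higher with RANKL than without it in every library. The sum ranged from 1781 to 2265 CPM (median 2054) in the 12 libraries with M-CSF alone and from 3074 to 3704 CPM (median 3305) in the 12 with RANKL, with no overlap. In control cells the group sums were 1921 ± 126 CPM without RANKL and 3538 ± 250 CPM with it at day 3 (SD, n = 3), a ratio of 1.84. At day 5 they were 2190 ± 66.6 and 3240 ± 104 CPM (SD, n = 3), a ratio of 1.48. Sums of the LysM-Cre-labelled cells were 1941 ± 160 and 3479 ± 278 CPM at day 3 and 2047 ± 66.4 and 3227 ± 237 CPM at day 5 (SD, n = 3), ratios of 1.79 and 1.58. The large and the small subunit gave nearly the same ratios in control cells, 1.84 each at day 3 and 1.48 each at day 5. In such bulk samples, fewer cells of a type and less RNA per cell cannot be told apart. The sums of cytosolic ribosomal proteins were 23990 ± 552 and 32200 ± 1826 CPM at day 3 in control cells and 26660 ± 1265 and 28220 ± 966 CPM at day 5 (SD, n = 3).

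**Figure D1:**
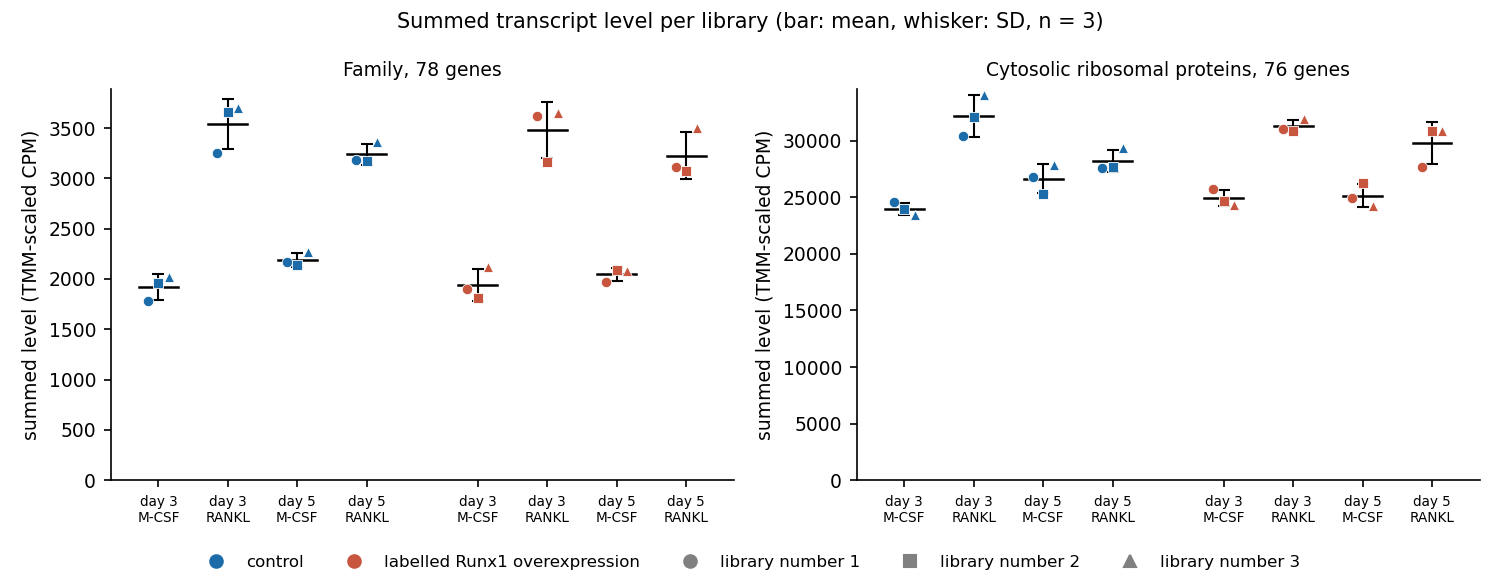
Summed TMM-scaled CPM in each of the 24 libraries for the 78 mitochondrial ribosomal protein genes and for 76 cytosolic ribosomal protein genes, by genotype, day and medium. Every library with RANKL lies above every library with M-CSF alone for the mitochondrial family, where the lowest of the former is at 3074 and the highest of the latter at 2265.

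At day 3, RANKL was associated with higher transcript levels of most of the family. In control cells, 65 of 77 tested members rose and 1 fell (edgeR adjusted p under 0.05), where 29.5% of all 15035 genes tested rose and 29.7% fell. The median difference was 0.85 on the log2 scale, against -0.03 over all genes, and the quartiles of the members lay at 0.55 and 1.15. Of the members 29 rose more than 2-fold, and the share of all genes that did so was not counted. The cells labelled LysM-Cre Runx1 gave 66 members higher and 2 lower, where 29.1% and 30.1% of all genes did so, with a median of 0.82. Without the libraries of that genotype numbered 3 the counts were 67 and 2. By subunit, 40 of 48 large-subunit members rose in control cells and 1 fell, and 25 of 29 small-subunit members rose and 0 fell. The 3 libraries of each medium did not overlap in 66 members with RANKL higher (30.6% of all genes) and in 1 with RANKL lower (30.5%), and they overlapped in 10. In LysM-Cre-labelled cells they did not overlap in 64 higher and 2 lower (29.1% of all genes each). Where 10% or more of the exonic length of a member is shared with another gene, counts of the pair can be mixed. Leaving out the 16 such members left 51 of 61 higher, 1 lower and a median of 0.84.

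Among small-subunit members, Mrps6, a protein with a bacterial counterpart that lies in the platform of the subunit, had the largest difference of the whole family. Its 3 control libraries at day 3 read 3.36, 4.85 and 5.12 CPM without RANKL and 35.0, 32.0 and 31.6 CPM with it. No library without RANKL came near those with it, and the difference was 2.88 ± 0.17 on the log2 scale (SE; edgeR adjusted p = 6.27e-12). Mrps6 (ENSMUSG00000039680, chr16:92058270-92112227, plus strand, GRCm38) shares 159 exonic bases on the same strand, 10.4% of its exonic length, with the inositol transporter gene Slc5a3, which itself rose by 4.28 on the log2 scale. The assignment of counts in the shared bases was not given in the sources used here, and their part in the rise was not tested. LysM-Cre-labelled cells gave Mrps6 readings of 4.99, 3.86 and 5.66 CPM without RANKL and 34.8, 35.0 and 35.8 CPM with it, a difference of 2.86 ± 0.16 (SE; edgeR adjusted p = 5.98e-12).

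Mrps35, a small-subunit protein without a bacterial counterpart (ENSMUSG00000040112, chr6:147042764-147073991, plus strand, GRCm38), came next. In control cells at day 3 it read 16.4, 15.4 and 13.2 CPM without RANKL and 81.0, 80.3 and 73.7 CPM with it. All 3 treated libraries lay far above the untreated ones, and the difference was 2.39 ± 0.11 on the log2 scale (SE; edgeR adjusted p = 2.84e-13), the smallest adjusted p in the family. The cells labelled LysM-Cre Runx1 read 14.3, 14.0 and 14.2 CPM without RANKL and 83.4, 78.4 and 77.6 CPM with it. Mrps34, another small-subunit protein particular to the mitochondrial ribosome, rose by 1.51 ± 0.19 in control cells (SE; edgeR adjusted p = 4.94e-07). Of its exonic length, 63.4% is shared with Mapk8ip3 on the opposite strand, which differed by 0.13 and was not past the threshold. On the same strand, 37.0% is shared with Nme3, which had 0 counts over all libraries. The assignment of counts in shared bases was not given in the sources used here. Whether the counts of Mrps34 hold reads of Nme3 can thus not be told. Mrps36 rose by 1.23 ± 0.17 (SE; edgeR adjusted p = 3.28e-06). Its product carries a ribosomal name and is now assigned to the 2-oxoglutarate dehydrogenase complex of the citric acid cycle.

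Other small-subunit members with stated roles rose by less. Mrps7, which helps to nucleate the head of the subunit, went from 35.7 ± 0.944 to 53.9 ± 5.32 CPM (SD, n = 3), a rise of 0.59 ± 0.09 on the log2 scale. Mrps27, a pentatricopeptide repeat protein that binds RNA, rose by 0.84 ± 0.18. Mrps12, which lies at the decoding centre, rose by 0.47 ± 0.14 (SE; edgeR adjusted p = 0.00622). Mrps30, which by structure sits in the large subunit despite its name, rose by 0.84 ± 0.10. Mrps10 rose by 0.59 ± 0.18 (SE; edgeR adjusted p = 0.00947), and without the control library numbered 1 at day 3 in M-CSF alone its difference was 0.39 with an edgeR adjusted p of 0.067.

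Among large-subunit members, Mrpl52, a protein without a bacterial counterpart (ENSMUSG00000010406, chr14:54426909-54429756, plus strand, GRCm38), had the largest rise. Its control libraries at day 3 read 13.3, 18.9 and 21.8 CPM without RANKL and 56.5, 74.2 and 81.6 CPM with it, a difference of 1.97 ± 0.20 on the log2 scale (SE; edgeR adjusted p = 5.01e-08). Mrpl12, the mitochondrial form of the L7/L12 stalk protein, which also binds the mitochondrial RNA polymerase (ENSMUSG00000039640, chr11:120484613-120489065, plus strand, GRCm38), read 18.7, 23.8 and 28.3 CPM and 69.4, 86.9 and 92.4 CPM. It rose by 1.81 ± 0.19 (SE; edgeR adjusted p = 4.06e-08). For both genes the groups were far apart, and in both media the library numbered 1 was the lowest of its group. Mrpl47, the counterpart of bacterial L29 at the exit of the tunnel, went from 8.16 ± 0.612 to 26.5 ± 3.88 CPM (SD, n = 3) and rose by 1.70 ± 0.17. Of its exonic length, 13.9% is shared on the opposite strand with Ndufb5, a subunit of respiratory complex I, which rose by 1.30. Mrpl38 was the fifth largest rise in LysM-Cre-labelled cells, at 1.61 ± 0.10 (SE; edgeR adjusted p = 1.43e-11).

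The large-subunit members with roles in the translating particle also rose. Mrpl11, part of the site that activates the GTPase of the elongation factors, rose by 0.74 ± 0.11 in control cells. Mrpl37, a protein particular to mitochondrial ribosomes, rose by 0.97 ± 0.08, and Mrpl44, which has a fold like that of ribonuclease III, by 1.15 ± 0.13. Mrpl44 went from 25.1 ± 4.80 to 55.8 ± 2.31 CPM (SD, n = 3).

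**Figure D2:**
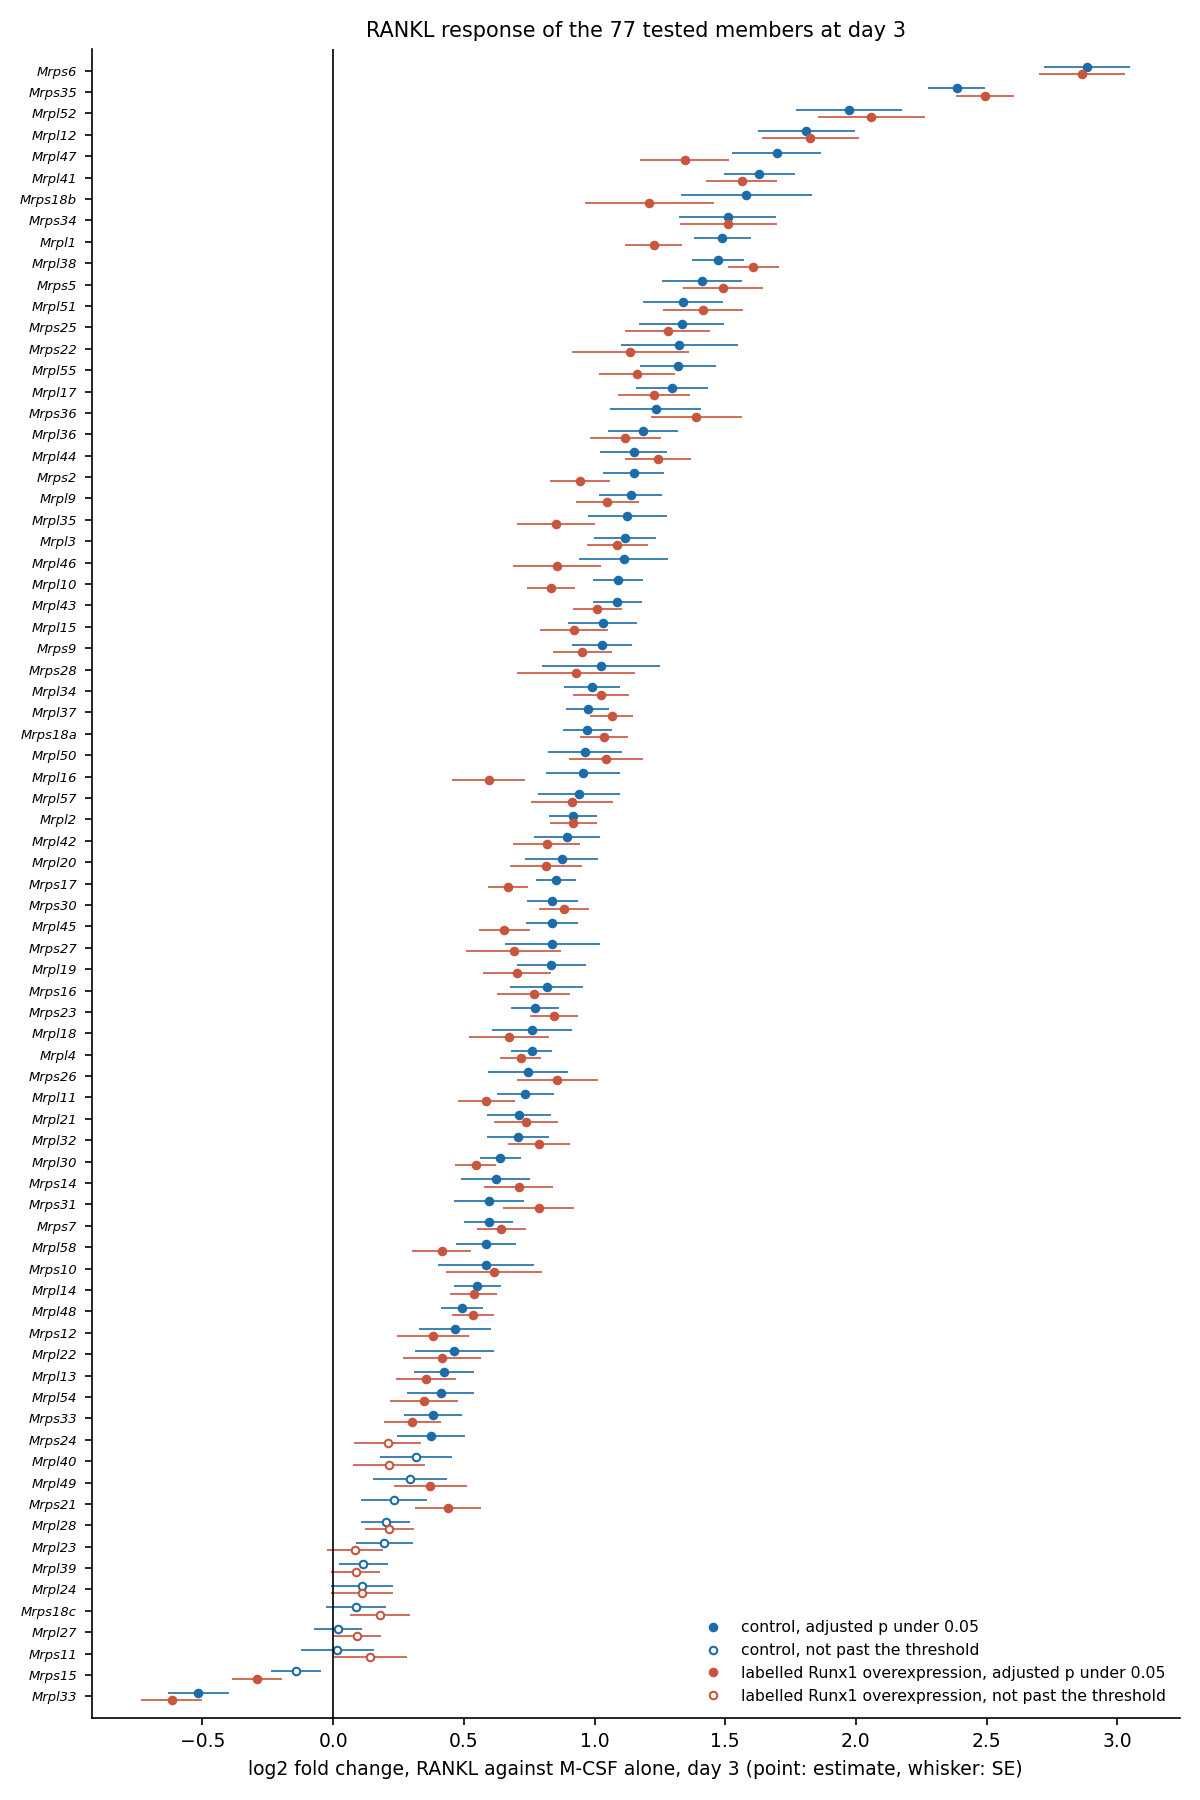
Log2 difference with RANKL against M-CSF alone at day 3 for each of the 77 tested members in control cells and in the cells labelled LysM-Cre Runx1, with bars of 1 SE from the edgeR fit. Most members lie above 0 in both genotypes, from Mrps6 at 2.88 down to Mrpl33 at -0.52 in control cells.

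Mrpl33 was the exception. It encodes a small protein of the large subunit with a bacterial counterpart, and it was lower with RANKL. Its control libraries at day 3 read 23.7, 26.3 and 29.4 CPM without RANKL and 18.5, 18.2 and 18.9 CPM with it, without overlap, and it fell by 0.52 ± 0.12 on the log2 scale (SE; edgeR adjusted p = 0.000698). With the other genotype it read 28.6, 26.5 and 27.2 CPM and 18.7, 14.0 and 20.9 CPM and fell by 0.62 ± 0.12 (SE; edgeR adjusted p = 0.00011). The Mrpl33 gene (ENSMUSG00000106918, chr5:31596935-31664384, plus strand, GRCm38) has 11 annotated transcripts, of which 1 is protein-coding and spans 31613939 to 31622644. With 6.5% of exonic bases in that transcript, counts of the gene need not reflect the coding mRNA, and the transcripts were not separated in the deposited counts. Mrps15, which has a bacterial counterpart in the small subunit, was the other member lower in the cells labelled LysM-Cre Runx1, at -0.29 ± 0.09 (SE; edgeR adjusted p = 0.0112). That call was lost with only the groups compared in the fit (edgeR adjusted p = 0.0902) and without the library of that genotype numbered 1 in M-CSF alone (edgeR adjusted p = 0.0914), and in control cells Mrps15 stood at -0.14 ± 0.09. Without the control library numbered 2 with RANKL, Mrps15 passed as a second lower member there as well.

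The 11 members that did not pass the test at day 3 in control cells lay between -0.14 and 0.32 on the log2 scale. Mrps18c, Mrpl24 and Mrpl27 were the 3 members that passed in none of the 4 RANKL comparisons, and these 3 are named after their values were seen. Mrpl27 stood at 0.02 ± 0.09 at day 3 and -0.18 ± 0.09 at day 5 in control cells (SE). Mrps18c stood at 0.09 ± 0.12 and 0.20 ± 0.12, and Mrpl24 at 0.11 ± 0.12 and 0.21 ± 0.12 (SE).

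**Figure D3:**
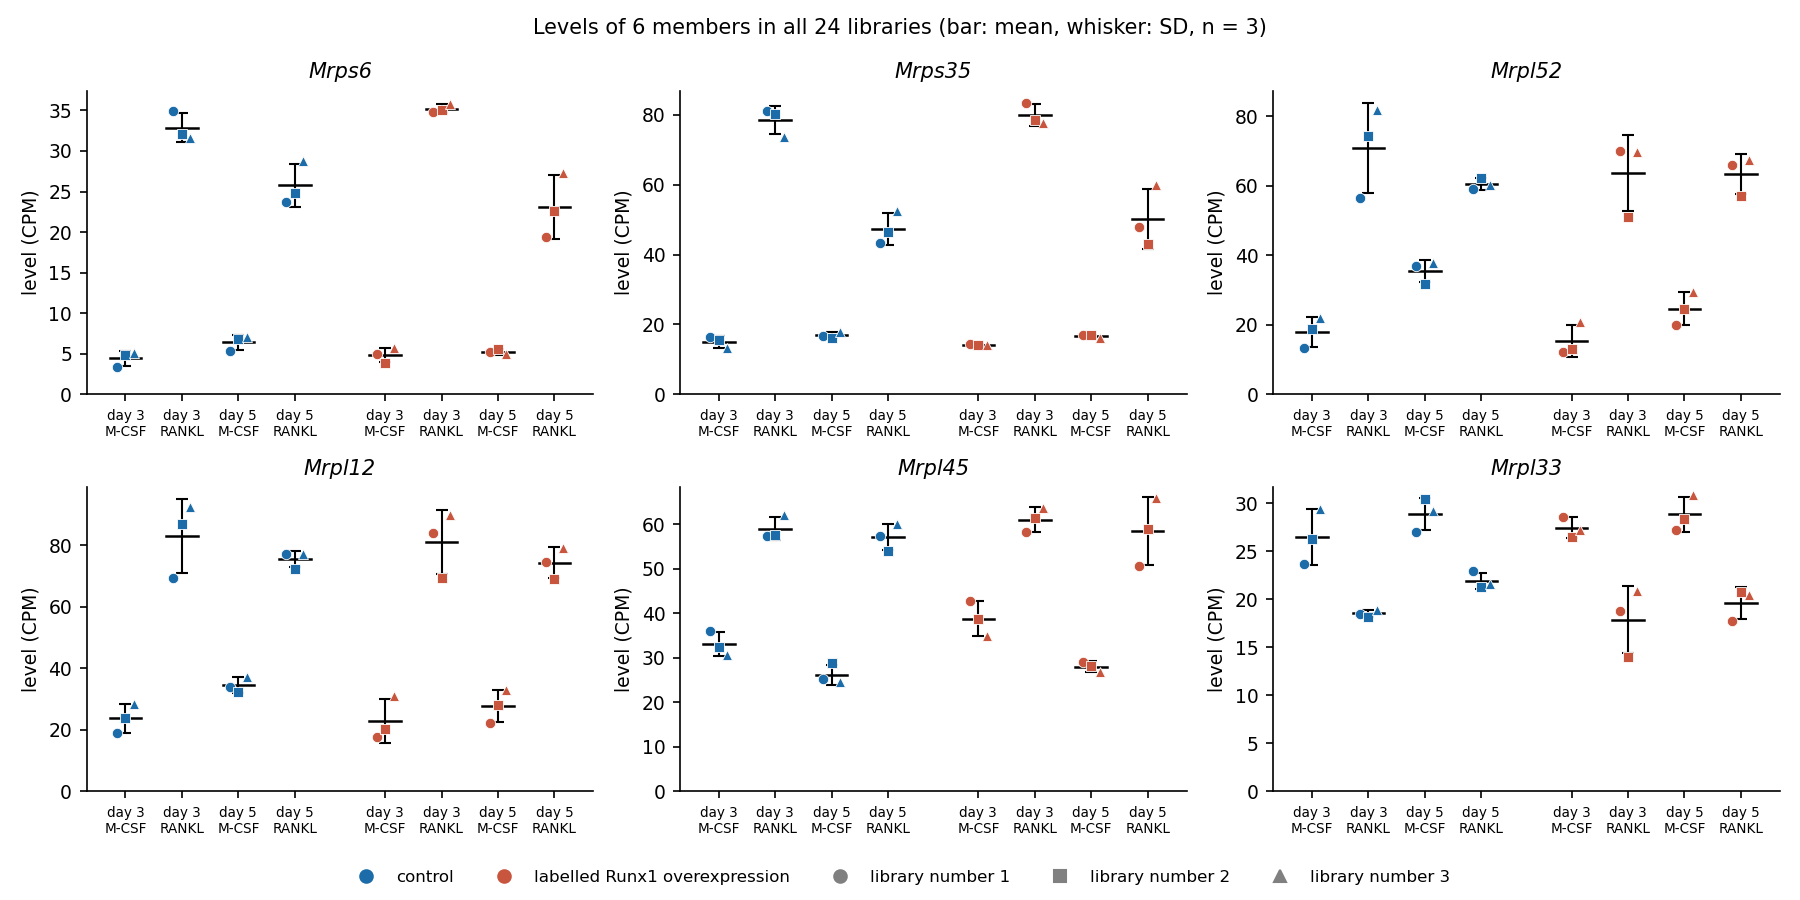
TMM-scaled CPM of Mrps6, Mrps35, Mrpl52, Mrpl12, Mrpl45 and Mrpl33 in each of the 24 libraries, by genotype, day and medium. With RANKL, Mrps35 in control cells is at 73.7 to 81.0 at day 3 and 43.3 to 52.3 at day 5, while Mrpl33 is lower with RANKL than without it at both days.

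At day 5 the family was still higher with RANKL, with smaller differences. In control cells 61 of 77 members rose and 2 fell, where 26.4% and 23.1% of all genes did, with a median of 0.52 against 0.03 over all genes, and 8 members rose more than 2-fold. The cells labelled LysM-Cre Runx1 gave 66 higher and 1 lower, where 27.5% and 24.9% of all genes did, with a median of 0.66 and 12 members above 2-fold. Without the libraries of that genotype numbered 3 the counts were 57 and 1, and without number 2 with RANKL 2 members were lower. The groups did not overlap in 66 members with RANKL higher and 3 lower in control cells (34.8% and 30.3% of all genes), and in 70 and 2 in the cells labelled LysM-Cre Runx1 (33.2% and 30.6%). Over the 4 RANKL comparisons, 57 members rose in each, and Mrpl33 fell in each. The shares of all genes that rose in all 4, or that rose more than 2-fold, were not counted.

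Mrps6 and Mrps35 again had the largest rises. Mrps6 read 5.39, 6.83 and 7.01 CPM without RANKL and 23.7, 24.8 and 28.7 CPM with it in control cells, a difference of 2.01 ± 0.16 on the log2 scale (SE; edgeR adjusted p = 1.41e-09). Mrps35 read 16.8, 16.1 and 17.9 CPM and 43.3, 46.5 and 52.3 CPM and rose by 1.48 ± 0.11 (SE; edgeR adjusted p = 3.24e-10). Neither gene overlapped between media, and the treated libraries of both were below all treated libraries of day 3. Mrpl41, a large-subunit protein particular to mitochondrial ribosomes, went from 18.7 ± 1.48 to 45.6 ± 3.04 CPM (SD, n = 3) and rose by 1.29 ± 0.14. Mrpl9, with a bacterial counterpart, rose by 1.21 ± 0.12, and Mrpl12 by 1.13 ± 0.18. The 5 largest rises in LysM-Cre-labelled cells were those of Mrps6 (2.14), Mrps35 (1.60), Mrpl12 (1.42), Mrpl52 (1.37) and Mrpl41 (1.34).

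Mrpl33 read 27.0, 30.4 and 29.2 CPM without RANKL and 22.9, 21.2 and 21.6 CPM with it in control cells at day 5 and fell by 0.40 ± 0.12 (SE; edgeR adjusted p = 0.00699). Mrpl23, which lines the exit tunnel of the large subunit, read 42.7, 44.3 and 46.6 CPM and 34.5, 34.2 and 35.7 CPM and fell by 0.36 ± 0.11 (SE; edgeR adjusted p = 0.00908). Both genes had every treated library below every untreated one. Without the filter on low counts neither passed the test, at -0.34 (edgeR adjusted p = 0.0591) for Mrpl33 and -0.30 (edgeR adjusted p = 0.0716) for Mrpl23. Mrpl33 also fell in LysM-Cre-labelled cells, by 0.55 ± 0.12 (SE; edgeR adjusted p = 0.000422), and Mrpl23 stood at -0.23 ± 0.11, not past the threshold. Of the 4883 exonic bases of Mrpl23, 966 (19.8%) belong to protein-coding transcripts. Its counts need not reflect the coding mRNA, as with Mrpl33 and with members that rose and have a share under 50%.

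The change in the response between days was tested as a difference of differences of signed log2 values. A smaller response means here a lower signed value at day 5, also where a gene fell with RANKL, and a larger one a higher value. In control cells the RANKL response was smaller at day 5 than at day 3 in 14 members and larger in 0, where 6.73% and 7.26% of all genes were so. The cells labelled LysM-Cre Runx1 gave 6 smaller and 0 larger, where 7.13% and 8.09% of all genes were so, so that its share of smaller responses was near that of all genes. The medians over the members were -0.31 and -0.19, against -0.02 over all genes in each genotype. The fitted difference was below 0 in 65 and 61 of the 77, and the share of all genes below 0 was not counted. Among the 14 was Mrpl23, at -0.55, which was not called at day 3 and fell with RANKL at day 5, so its response did not shrink. Mrpl52 had the largest, at -1.21 ± 0.28 in control cells (SE; edgeR adjusted p = 0.0057). Its untreated control libraries read 36.9, 31.8 and 37.8 CPM at day 5, all above the untreated libraries of day 3, while its treated libraries read 58.9, 62.3 and 60.2 CPM.

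Mrps35 differed by -0.90 ± 0.15 in control cells (SE; edgeR adjusted p = 0.000273) and by -0.90 ± 0.15 in the cells labelled LysM-Cre Runx1 (SE; edgeR adjusted p = 0.000266). For this gene the untreated libraries of both days lay close together and the treated ones were lower at day 5. Mrps6 differed by -0.88 ± 0.22 in control cells (SE; edgeR adjusted p = 0.0107) and by -0.73 ± 0.22 in the other genotype (SE; edgeR adjusted p = 0.0302). The latter call was lost under scaling by library totals (-0.63, edgeR adjusted p = 0.0624), without the low-count filter (-0.69, edgeR adjusted p = 0.0671) and without any 1 of 6 libraries: number 2 at day 3 and numbers 1 and 2 at day 5 in M-CSF alone, and number 1 at day 3 and numbers 1 and 2 at day 5 with RANKL. Mrps5, a small-subunit protein with a bacterial counterpart, differed by -0.79 ± 0.21 in the cells labelled LysM-Cre Runx1 (SE; edgeR adjusted p = 0.0144) and by -0.74 ± 0.21 in control cells.

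These counts moved with the scaling. Under library totals the counts were 7 smaller in control cells, and 2 larger and 3 smaller in the cells labelled LysM-Cre Runx1. Over all genes, 1091 responses were larger and 1012 smaller in control cells under TMM, and 1403 and 685 under library totals. The other genotype gave 1216 and 1072 under TMM, and 1599 and 780 under library totals. That scaling moved the median over all genes from -0.02 to 0.09. Leaving out the control library numbered 1 at day 3 with RANKL gave 23 smaller in control cells. Leaving out the library of the other genotype numbered 3 at day 3 in M-CSF alone gave 12 smaller and 1 larger there, leaving out number 3 at day 5 with RANKL gave 10 smaller, and leaving out number 1 at day 5 with RANKL gave 1 larger.

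**Figure D4:**
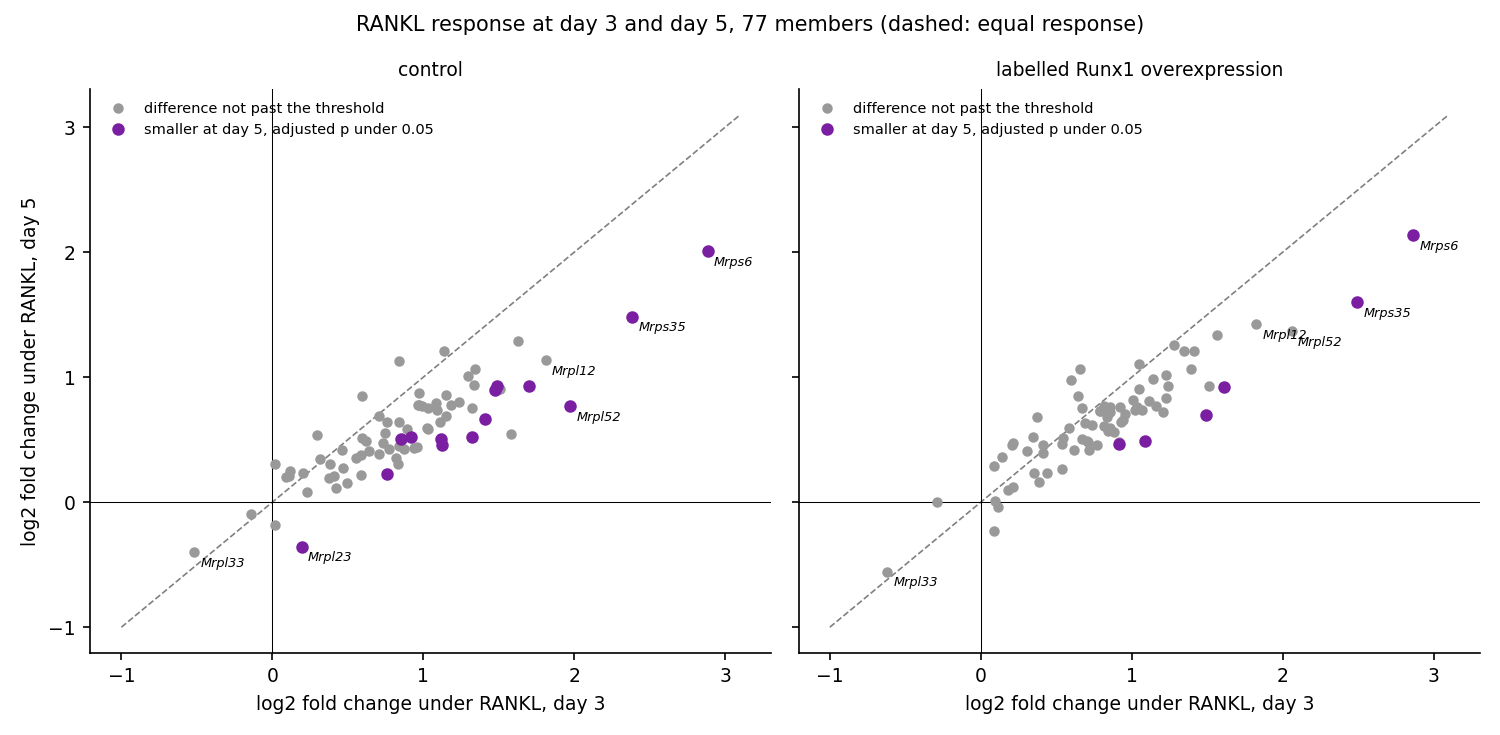
Log2 difference with RANKL at day 3 (horizontal) and at day 5 (vertical) for each tested member in each genotype. Members whose signed difference was lower at day 5 past the threshold, called smaller in the key, are in purple. Most points lie below the diagonal of equal responses, with 14 purple points in control cells and 6 in the cells labelled LysM-Cre Runx1.

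The comparison of days within a medium used the same libraries in other combinations, so its results are not independent of those above. In M-CSF alone, 17 members were higher at day 5 than at day 3 in control cells and 1 was lower, where 12.2% and 11.5% of all genes were so, with a median of 0.17. Mrps18b, a form of the small-subunit protein S18, read 5.17, 9.04 and 12.1 CPM at day 3 and 21.1, 18.7 and 16.3 CPM at day 5 and rose by 1.09 ± 0.25 (SE; edgeR adjusted p = 0.00428). Of its exonic length, 30.5% is shared with the antisense gene Gm16279. Mrpl52 rose by 0.98 ± 0.20 (SE; edgeR adjusted p = 0.00182) and Mrpl55 by 0.67 ± 0.15 (SE; edgeR adjusted p = 0.00267). The groups did not overlap for Mrps18b or Mrpl52. Mrpl45, which tethers the ribosome to the inner membrane, was the member that fell, from 33.0 ± 2.76 to 26.2 ± 2.24 CPM (SD, n = 3), by 0.34 ± 0.10 (SE; edgeR adjusted p = 0.0201). With RANKL its libraries read 57.4, 57.7 and 62.1 CPM at day 3 and 57.4, 54.0 and 60.0 CPM at day 5, with values of the 2 days overlapping.

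These day counts rested on scaling and on single libraries. Under library totals they were 7 higher and 3 lower. Over all genes 1838 were higher and 1732 lower under TMM, and 1063 and 2541 under library totals, with medians of 0.01 and -0.09. Without the control library numbered 1 at day 3 in M-CSF alone 5 members were higher, and without number 2 of that day 10 were. Leaving out number 1 of day 5 left 7 higher, and leaving out number 3 of day 5 left 11. The fall of Mrpl45 did not pass without number 1 at day 3 (-0.27, edgeR adjusted p = 0.11), without number 1 or 3 at day 5, without the low-count filter (edgeR adjusted p = 0.0727) or with only the groups compared in the fit (edgeR adjusted p = 0.0742). Without number 3 at day 3, 2 members were lower. Among LysM-Cre-labelled libraries, 4 members were higher and 2 lower, where 7.17% and 7.08% of all genes were so, with a median of 0.09. There Mrpl52 rose by 0.69 ± 0.20, Mrps5 by 0.53 ± 0.15 and Mrpl38 by 0.35 ± 0.10, and Mrpl45 fell by 0.47 ± 0.10 and Mrpl9 by 0.43 ± 0.12 (SE). With only the groups compared in the fit none of these 5 passed, with edgeR adjusted p from 0.0577 for Mrpl45 to 0.168 for Mrps5. Under library totals 0 members were higher there, with 687 genes higher and 1686 lower over all genes against 1078 and 1065 under TMM. With number 3 at day 3 left out 14 were higher, with number 1 at day 3 left out 1, and with number 2 at day 3 or number 2 or 3 at day 5 left out 0. Mrpl9 did not pass without number 2 at day 3 (-0.27, edgeR adjusted p = 0.158) or without any 1 of the libraries of day 5, and 1 member was lower in each of these 4 cases.

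With RANKL, the days were also compared. In control cells 8 members were lower at day 5 than at day 3 and 1 was higher, where 12.7% and 14.1% of all genes were so, with a median of -0.11. Mrps35 fell by 0.73 ± 0.10 (SE; edgeR adjusted p = 5.22e-05), Mrps9 by 0.50 ± 0.11 (SE; edgeR adjusted p = 0.0025) and Mrps36 by 0.46 ± 0.17 (SE; edgeR adjusted p = 0.0493). Mrpl49 was the member that rose, from 29.4 ± 2.40 to 40.4 ± 0.0963 CPM (SD, n = 3), by 0.46 ± 0.14 (SE; edgeR adjusted p = 0.0196). Without number 1 or 2 at day 3 or number 1 at day 5, Mrpl49 did not pass, with edgeR adjusted p up to 0.0999, and Mrps36 passed with none of the 6 libraries left out, with edgeR adjusted p from 0.056 to 0.153. Without number 2 at day 3 or number 1 at day 5 the lower members were 4, and without number 2 at day 5 they were 5. The cells labelled LysM-Cre Runx1 gave 14 lower and 1 higher, where 15.6% and 17.6% of all genes were so. Mrps35 fell by 0.67 ± 0.10, Mrps6 by 0.61 ± 0.15 and Mrpl1 by 0.48 ± 0.11, and Mrpl49 rose by 0.52 ± 0.14 there (SE). Leaving out number 1 or 2 of that genotype at day 5 left 9 and 7 lower. The shares of members lower at day 5 than at day 3 were near those of all genes in both genotypes. Only 1 member was higher in each genotype, where 14.1% and 17.6% of all genes were, so the calls made lay mostly on the lower side. The difference between the family and all genes was not tested. RLE size factors and DESeq2 each gave 17 lower in control cells, where over all genes 1759 were higher and 2342 lower with RLE and 1942 and 2603 with DESeq2, against 2114 and 1913 under TMM. Without the low-count filter 2 members were lower.

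Genotype made no difference past the test in any member. In each of the 4 combinations of day and medium, 0 of 77 members and 0.0% of the 15035 genes passed in edgeR. At an unadjusted p under 0.05 there were 3 members at day 3 in M-CSF alone, 1 at day 3 with RANKL, 4 at day 5 in M-CSF alone and 0 at day 5 with RANKL. The shares of all genes at that unadjusted p were not counted, so these numbers are not read as a result about the members. DESeq2 called 0 members in each combination. Over all genes DESeq2 called 2 higher and 1 lower, 0 and 1, 10 and 8, and 5 and 0 in these combinations in turn. The smallest edgeR adjusted p of a member was 0.578, at day 5 in M-CSF alone. The fitted differences ran from -0.30 to 0.32 and from -0.25 to 0.23 at day 3 without and with RANKL, and from -0.53 to 0.12 and from -0.20 to 0.20 at day 5. The 95% intervals reached from -0.66 to 0.81, from -0.59 to 0.54, from -0.94 to 0.37 and from -0.53 to 0.57. Without RANKL at day 3, the libraries labelled LysM-Cre Runx1 lay wholly below the control libraries in 2 members and wholly above in 2. With RANKL they lay wholly below in 4 and above in 0 at day 3, and below in 3 and above in 3 at day 5. The shares of all genes in these combinations are not given here. The most one-sided combination was day 5 without RANKL, with 16 members wholly below and 1 wholly above, where 8.03% and 8.74% of all genes were so. The median there was -0.08. Mrpl52 had the lowest value there, with 36.9, 31.8 and 37.8 CPM in control cells and 19.9, 24.5 and 29.4 CPM in the others, at -0.53 ± 0.20 (SE). The difference in RANKL response between genotypes passed the test in 0 of 77 members and 0.0% of all genes at each day. Under an unadjusted p of 0.05 there were 0 members at day 3 and 3 at day 5, and the share of all genes was again not counted.

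Genes that work with the mitochondrial ribosome are given for the same RANKL comparison at day 3 in control cells, where 29.5% of all genes rose. The 5 ribosomal proteins of mitochondria with other names all rose (5 of 5, median 0.58), among them Ptcd3, a pentatricopeptide protein of the small subunit, at 1.52 ± 0.16, Gadd45gip1 at 1.01 ± 0.14 and Dap3, a GTP-binding protein of the small subunit, at 0.58 ± 0.09 (SE). Of 27 assembly factors, which build the particle, 13 rose and 2 fell, with a median of 0.24. They included Grsf1, which binds mitochondrial RNA, at 1.18 ± 0.08, Noa1, a GTPase, at 1.61 ± 0.14 and Mettl15, an rRNA methyltransferase, at 2.11 ± 0.22 (SE). LysM-Cre-labelled cells gave 5 of 5 of the former and 12 of 27 of the latter higher, where 29.1% of all genes rose.

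Of 13 mitochondrial translation factors, 11 rose and 0 fell, with a median of 0.86, led by the elongation factor Tufm at 1.59 ± 0.10 and by Lrpprc, which keeps mitochondrial mRNAs stable, at 1.55 ± 0.11, with the recycling factor Gfm2 at 1.11 ± 0.09 (SE). Of 20 aminoacyl tRNA synthetases of mitochondria, 14 rose and 1 fell, with a median of 0.91. Iars2, Sars2 and Tars2, which charge isoleucine, serine and threonine, stood at 1.13, 1.33 and 1.06. Of 11 genes for mitochondrial transcription and DNA maintenance, 7 rose and 1 fell, with a median of 0.50, including the transcription factor Tfb2m at 0.78, the helicase Twnk at 1.07 and the RNA polymerase Polrmt at 0.55. Twnk shares 507 exonic bases on the opposite strand with the family member Mrpl43, 33.4% of the exonic length of Mrpl43. The part of these bases in the rise of Twnk was not tested.

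The RNAs that the particle contains or translates were higher as well. Both mitochondrial rRNAs rose, mt-Rnr1 of the small subunit by 1.27 ± 0.21 and mt-Rnr2 of the large subunit by 1.02 ± 0.20 (SE). The kit's selection of RNA, on which rRNA counts depend, was not given in the sources used here. All 12 tested mitochondrially encoded mRNAs rose (median 1.48), among them mt-Nd3 at 1.93, mt-Cytb at 1.58 and mt-Nd1 at 1.52. Mitochondrial transcripts together took 1.52% to 2.42% of counts without RANKL and 3.15% to 4.57% with it.

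At day 5 in control cells the same lists gave 10 of 27 assembly factors higher and 1 lower, 10 of 13 translation factors higher and 0 lower, and 13 of 20 synthetases higher and 1 lower, where 26.4% of all genes rose. All 12 tested mitochondrially encoded mRNAs rose again, with a median of 1.23, and 1 of the 2 rRNAs did. Of 76 cytosolic ribosomal proteins, 65 rose and 0 fell at day 3 with a median of 0.39, and 12 rose and 1 fell at day 5 with a median of 0.07. For LysM-Cre-labelled cells, 54 rose at day 3 (median 0.29) and 47 at day 5 (median 0.27), with 0 lower at each day. Of all genes, 29.1% rose and 30.1% fell at day 3 in that genotype, and 27.5% rose and 24.9% fell at day 5. The difference between the families was not tested. Among known regulators, 4 of 10 tested rose and 3 fell at day 3 in control cells, where 29.5% of all genes rose and 29.7% fell, so the share that fell was that of all genes. At day 5, 4 rose and 0 fell, where 26.4% and 23.1% of all genes did. Ppargc1b, a coactivator that drives mitochondrial biogenesis, rose by 4.50 ± 0.15 (SE; edgeR adjusted p = 5.06e-15), from 5.57 ± 0.721 to 126 ± 9.11 CPM on average. Esrra, the nuclear receptor it works with, rose by 1.57 ± 0.17 (SE; edgeR adjusted p = 1.28e-07), and Max, the partner of Myc, fell by 0.40 ± 0.08 (SE; edgeR adjusted p = 0.000379).

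**Figure D5:**
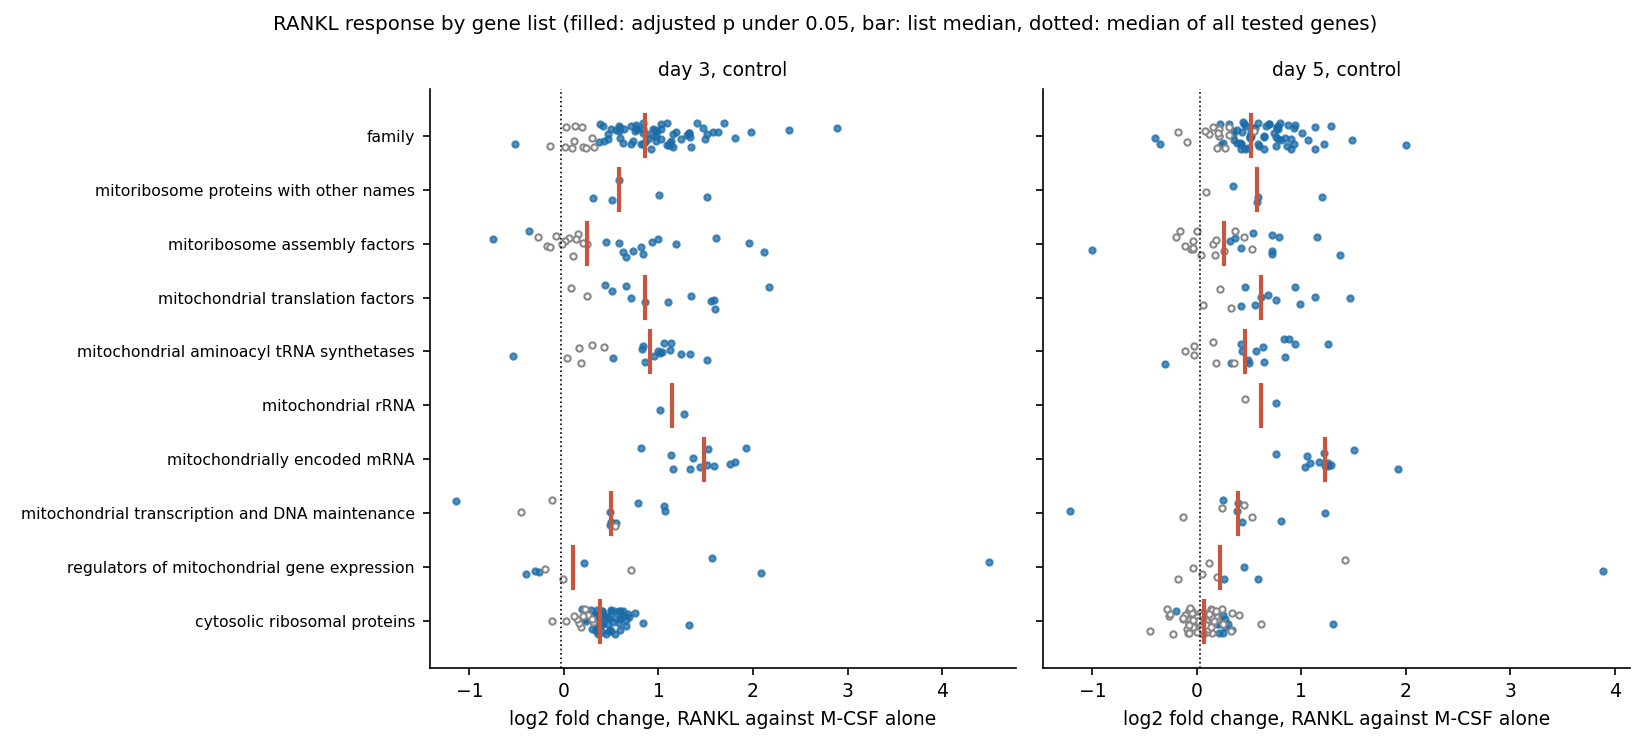
Log2 difference with RANKL against M-CSF alone in control cells for each tested gene of the mitochondrial ribosomal proteins and of the related lists, at day 3 and day 5. Medians of the mitochondrial ribosomal proteins are 0.85 and 0.52, and those of the cytosolic ribosomal proteins 0.39 and 0.07.

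Other measures moved with the medium in the same libraries. The summed osteoclast markers were higher and the summed macrophage markers lower with RANKL, over group means that did not overlap. Of the macrophage markers, Csf1r and Cd68 overlapped between media, as given above. Cell-cycle genes summed to 2107 ± 580 CPM without RANKL and 985 ± 266 CPM with it at day 3 in control cells, and to 1207 ± 46.5 and 2028 ± 102 CPM at day 5 (SD, n = 3). The cell-cycle sums were thus lower with RANKL at day 3 and higher with it at day 5. Stromal markers had group means of 8.45 to 15.0 CPM at day 3 and 53.6 to 172 CPM at day 5. Pf4 and the neutrophil markers moved with the medium too, as given above. The part of these measures in the differences of the family was not tested.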

How the data were processed

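The authors deposited raw counts of reads for each of 54532 gene rows in 24 libraries, in 1 table with identifiers, symbols, positions and lengths, and 0 value columns were left unmatched. STAR, DESeq2 and GRCm39 are named without versions in the submitters' processing notes, which omit the counting and strand settings (not given in the sources used here). Of the identifiers, 54495 occur in GENCODE M21 of GRCm38 and 53585 have the same position there (98.3%), as do 73 of the 78 members, so positions are given as in the table and called GRCm38. Exon overlaps and transcript types come from that annotation. Of the members, 33 share exonic bases with another gene, and 10 rows of processed pseudogenes named for the family had at most 186 counts each over all libraries.

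Counts were tested with edgeR 4.0.16 (limma 3.58.1, R 4.3.3): filterByExpr kept 15035 genes (27.6%), libraries were scaled by TMM (factors 0.959 to 1.06), and a robust quasi-likelihood model with a coefficient for each of the 8 groups was fitted to the 24 libraries. A difference was called where the p adjusted by Benjamini-Hochberg over all genes tested was under 0.05. The SE is the log2 fold change divided by the root of F. CPM is the count per 1e6 of the TMM-scaled library size, with mean ± SD over 3 libraries. The fit was tested on simulated counts. Alternatives were RLE size factors, library totals, no low-count filter, only the groups compared, DESeq2 1.42.0, each library left out, the 4 LysM-Cre libraries numbered 3 left out, and a replicate block.

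The labels do not say what the numbers 1 to 3 mark. Same-numbered libraries deviated together, with all 3 correlations above 0.1, in the RANKL comparison at day 3 in control cells (0.12 to 0.44) and at day 5 in the cells labelled LysM-Cre Runx1 (0.22 to 0.43); there the blocked fit gave 67 and 66 members higher and 1 lower in each. Members named are the 5 largest rises and falls past the threshold in each RANKL comparison, the 3 largest in each direction in other comparisons, the extremes of level per exonic length, untested members and 10 members with stated roles, and up to 3 genes of each related list by smallest p. Members and lists were chosen with earlier results of these data known, so neither is independent evidence. Promoters are from RefSeq on GRCm38.p6.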

Additional observations from a re-analysis of the deposited data

Results flagged for a closer look

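The RANKL response differed between day 3 and day 5 in 14 members in control cells and in 6 in the cells labelled LysM-Cre Runx1. This was by an interaction term of the edgeR model at an adjusted p under 0.05, and the signed log2 value was lower at day 5 in each. Mrpl23 was not called at day 3 and fell with RANKL at day 5. Over all genes 6.73% and 7.13% had a lower signed value at day 5, so the share in the LysM-Cre-labelled cells was near that of all genes. In control cells the differences on the log2 scale were -1.21 for Mrpl52, -0.90 for Mrps35, -0.88 for Mrps6, -0.80 for Mrpl55, -0.77 for Mrpl47, -0.74 for Mrps5 and -0.67 for Mrpl35. They were -0.61 for Mrpl3, -0.57 for Mrpl38, -0.56 for Mrpl1, -0.55 for Mrpl23, -0.54 for Mrpl4, -0.40 for Mrpl2 and -0.35 for Mrps17. In the cells labelled LysM-Cre Runx1 they were -0.90 for Mrps35, -0.79 for Mrps5, -0.73 for Mrps6, -0.69 for Mrpl38, -0.60 for Mrpl3 and -0.46 for Mrpl2. All 6 of the latter are among the 14 of control cells. Under library totals the calls of Mrpl2, Mrpl23, Mrpl3, Mrpl35, Mrpl47, Mrps17 and Mrps5 were lost in control cells, and those of Mrpl2, Mrpl3 and Mrps6 in the LysM-Cre-labelled cells. Without the low-count filter those of Mrpl1, Mrpl2, Mrpl23, Mrpl35, Mrpl47 and Mrps17, and of Mrpl2 and Mrps6, were lost.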

How the results depend on the processing

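The counts of members that rose with RANKL stayed within 1.5 times the main count under every alternative. With a library left out they ran from 63 to 67 and from 62 to 68 at day 3 in control cells and in the cells labelled LysM-Cre Runx1, and from 47 to 55 and from 60 to 66 at day 5. Members that fell ran from 1 to 2 in each but day 5 in control cells, where they ran from 2 to 3. Only the groups compared gave 1 lower at day 3 in the cells labelled LysM-Cre Runx1, and no low-count filter gave 0 lower at day 5 in control cells. Genotype gave 0 members in every alternative.

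Day 5 against day 3 in M-CSF alone was less stable. In control cells the members higher were 7 under library totals, 6 with only the groups compared and 5 to 25 with a library left out. Members lower were 3 under library totals, 0 without the filter, 0 with only the groups compared, 2 with DESeq2 and 0 to 2 with a library left out. In the cells labelled LysM-Cre Runx1 the higher were 0 under library totals, 1 without the filter, 0 with only the groups compared, 7 without the libraries numbered 3 and 0 to 14 with a library left out, and the lower were 0 with only the groups compared and 1 to 2 with a library left out. With RANKL in control cells the lower were 17 with RLE size factors, 2 without the filter, 13 with only the groups compared, 17 with DESeq2 and 4 to 11 with a library left out, and the higher 0 to 1. In the cells labelled LysM-Cre Runx1 the higher were 2 with only the groups compared and 2 without the libraries numbered 3, and 1 throughout with a library left out, and the lower 7 without the filter, 8 with only the groups compared and 7 to 17 with a library left out.

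Smaller RANKL responses at day 5, in the signed sense given above, numbered 7 in control cells under library totals. They numbered 8 without the filter, 23 with DESeq2 and 10 to 23 with a library left out. In the cells labelled LysM-Cre Runx1 library totals gave 2 larger and 3 smaller, and leaving out a library gave 0 to 1 larger and 4 to 12 smaller. Beyond the fewer libraries or genes that some alternatives use by construction, the cause was not tested.

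With the replicate block, day 5 against day 3 in M-CSF alone gave 27 members higher in control cells and 6 in the cells labelled LysM-Cre Runx1. With RANKL it gave 10 and 14 lower, with 2 higher in the cells labelled LysM-Cre Runx1. The block moved no other count by more than 1.5 times. Within genotypes, 17 of 36 same-numbered pairs had deviations correlated above 0.1 (-0.11 to 0.44), and between genotypes 4 of 12 (-0.22 to 0.63). These 4 were the pairs numbered 3, at 0.63 and 0.51 at day 3 without and with RANKL and at 0.18 and 0.19 at day 5. Within a RANKL comparison, libraries correlated best with their own number in 6 of 6 cases in 3 comparisons and in 5 of 6 at day 5 in control cells, which is a hint from the data and not part of the design. Of results for single named members, 736 kept their direction and side of the threshold, 54 lost the call, 3 gained it and 0 reversed. The 77 tested members had at least 72 counts in each library, and the level of Mrpl53, at 0 counts, could not be read.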
